A study of Canis lupus familiaris with 15 samples.

Results

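NR3C1, the gene of the glucocorticoid receptor, and ZBTB16, a zinc finger gene that responds to steroids, were followed through 4 states of the canine corpus luteum (CL). They are 2 of the 23630 Ensembl genes in the deposited RNA-Seq count table, with the identifiers ENSCAFG00000006293 for NR3C1 and ENSCAFG00000013538 for ZBTB16. Both were chosen because their mRNA was known to be higher in luteal regression than in prepartum luteolysis, so the values of that contrast describe the choice and carry no test. ZBTB16 mRNA was at its lowest in prepartum luteolysis, below every dog of the other groups, which in part restates the choice. Luteolysis did not overlap with mid-gestation in 9.76% of genes, with antigestagen in 7.74% and with luteal regression in 38.1%. NR3C1 mRNA differed little among the 3 groups of pregnant dogs.

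CL were taken by ovariohysterectomy from cross-breed bitches of 2 to 8 years, with 1 library per dog and no dog in more than 1 group. The mid-gestation group held 5 untreated pregnant dogs on days 35 to 40 after ovulation. The antigestagen group held 5 pregnant dogs on days 40 to 45 that had received aglepristone, a blocker of the progesterone (P4) receptor, at 10 mg/kg in 2 applications 24 h apart, with tissue taken 24 h after the last one. The luteolysis group held 3 pregnant dogs sampled during the natural P4 decrease before birth, followed every 6 h from day 58 until 3 consecutive P4 values lay below 2 to 3 ng/ml, and the luteal regression group held 2 non-pregnant dogs on day 65. Pregnancy, day and treatment differ together between these groups, so their parts cannot be told apart, and the effect of aglepristone was measured 1 time after treatment only. Whole tissue was sequenced, so fewer cells of a type and less RNA per cell cannot be told apart either.

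The glucocorticoid receptor is a transcription factor that waits in the cytoplasm, bound to heat shock protein chaperones, until cortisol binds it and sends it to the nucleus. It is a close relative of the mineralocorticoid and progesterone receptors, and all of them recognise similar DNA elements. P4 and antigestagens of the aglepristone type can also bind the glucocorticoid receptor. ZBTB16, also called PLZF, is a repressor with a BTB domain and zinc fingers that recruits histone deacetylases, and its transcription is induced by glucocorticoids in many cells and by progestins in uterine stroma. In the dog the CL are the source of circulating P4 throughout pregnancy.

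Expression is given as CPM, the usual unit of a read count relative to the size of its library, after TMM scaling of the libraries. The total count per dog lay between 8558743 and 26284315. NR3C1 was counted with 1006 to 3276 reads per dog, and ZBTB16 with 14 to 197 reads. Counting error therefore matters for ZBTB16 alone: the 14 reads of luteolysis dog 3 have an exact 95% Poisson interval of 7.65 to 23.5 reads, and the 197 reads of luteal regression dog 2 one of 170 to 227 reads. These intervals cover counting error only. The library kit does not mark strand, so reads from a gene on the opposite strand could not be told apart.

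The tissue label could be checked with few markers, since gene names were taken from the study's lists of differing genes. Of 12 markers fixed for steroidogenic luteal cells 1 had an identifier, the prolactin receptor gene PRLR, at 65.8 to 175 CPM over all dogs. CYP17A1, a steroidogenic enzyme, was at 27.1 to 857 CPM. The first luteolysis dog had lower summed levels than the other two of the 8 matched of 22 leukocyte markers and of the endothelial markers, and results that rest on single dogs are given without them.

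NR3C1 was measured at 127.7, 93.7, 117.8, 108.1 and 107.7 CPM in the mid-gestation dogs. In the antigestagen-treated dogs it was at 135.2, 101.0, 103.4, 85.5 and 101.6 CPM. The luteolysis dogs had 94.1, 107.6 and 95.8 CPM, and the luteal regression dogs 160.2 and 147.6 CPM. Both luteal regression dogs thus lay above every pregnant dog, whereas the 3 groups of pregnant dogs overlapped throughout. Luteal regression did not overlap with mid-gestation in 30.5% of genes, with antigestagen in 29.7% and with luteolysis in 38.1%. The means were 111 ± 12.7 CPM at mid-gestation (mean ± SD, n = 5), 105 ± 18.2 CPM after antigestagen (n = 5), 99.2 ± 7.32 CPM in luteolysis (n = 3) and 154 ± 8.89 CPM in luteal regression (n = 2).

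The spread of NR3C1 between dogs was small. The SD of its log2 CPM within groups was 0.18, and 6.53% of all genes in the fit had a smaller one. The median over all 14922 genes was 0.41.

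ZBTB16 was measured at 8.50, 3.13, 5.74, 4.49 and 2.98 CPM in the mid-gestation dogs. After antigestagen it was at 3.33, 1.90, 2.22, 2.48 and 3.23 CPM. It was at 1.28, 1.11 and 0.812 CPM in the luteolysis dogs and at 5.23 and 10.1 CPM in the luteal regression dogs. No luteolysis dog overlapped with any other group. For single pairs of groups, luteolysis did not overlap with luteal regression in 38.1% of genes, with mid-gestation in 9.76% and with antigestagen in 7.74%. The share for all pairs at once was not counted, and the choice had used the luteolysis values. The 2 lowest mid-gestation dogs lay within the range of the treated dogs, and both luteal regression dogs lay above all treated dogs. The means were 4.97 ± 2.27 CPM at mid-gestation, 2.63 ± 0.629 CPM after antigestagen, 1.06 ± 0.235 CPM in luteolysis and 7.67 ± 3.45 CPM in luteal regression (mean ± SD, n = 5, 5, 3 and 2).

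ZBTB16 varied between dogs about as much as an average gene, with an SD of log2 CPM within groups of 0.48. A smaller SD was found in 59.5% of genes. At mid-gestation its level ran from 2.98 to 8.50 CPM, and the coefficient of variation was 45.7%, against 23.9% in the treated dogs and 22.1% in the luteolysis dogs.

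**Figure D1:**
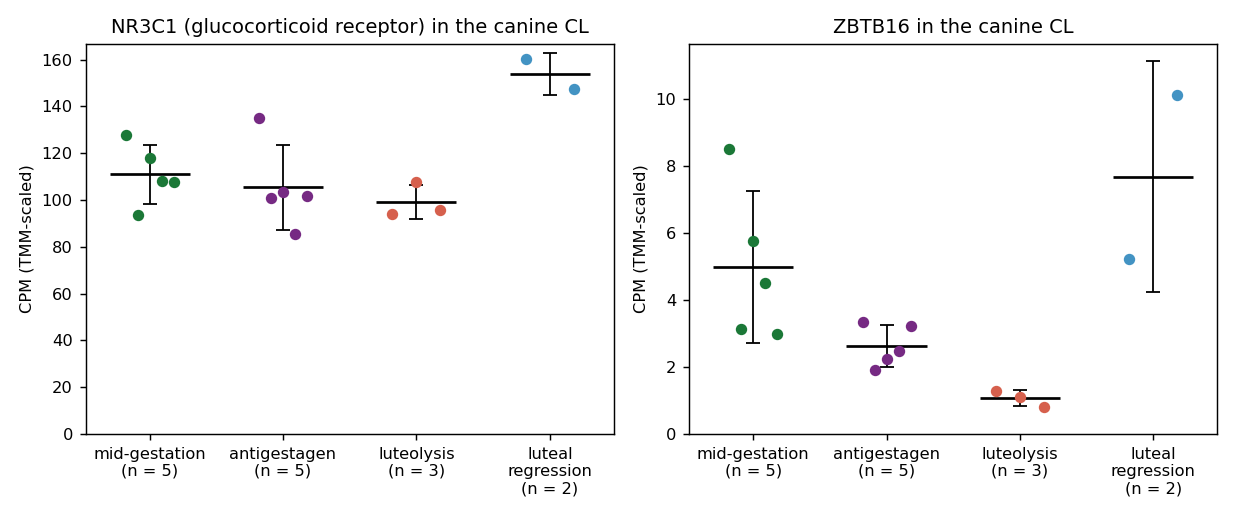
CPM of NR3C1 (left) and ZBTB16 (right) in each of the 15 dogs, by group, where points are dogs, horizontal lines group means and bars the SD. For NR3C1 only the 2 luteal regression dogs, at 147.6 and 160.2 CPM, stand above the rest, while for ZBTB16 the 3 luteolysis dogs, at 0.812 to 1.28 CPM, lie below all others.

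In the contrast “luteal regression over luteolysis”, by which the genes were chosen, the log2 ratio was 0.63 for NR3C1 and 2.84 for ZBTB16. The groups did not overlap for either gene, which held for 38.1% of all 14768 genes tested in this contrast of 2 against 3 dogs, where 5.11% of the genes passed the criteria for differential expression given below. Without luteal regression dog 2 the log2 ratio of ZBTB16 was 2.29.

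The first contrast that the choice did not use directly is “mid-gestation over luteolysis”, which compares the CL of pregnancy before and during the P4 decrease. It shares the luteolysis dogs with the contrast above, whose ZBTB16 values the choice had used, so its test is not independent of the choice. ZBTB16 was higher at mid-gestation, with a log2 ratio of 2.22 (SE 0.42), equal to 4.65-fold, and edgeR's quasi-likelihood test over all genes gave an adjusted p of 0.0128. Differentially expressed genes (DEG) were those with a p-value under 0.01 and an adjusted p-value under 0.1, and 8.16% of the 14669 genes tested were DEG, 2.43% with higher expression at mid-gestation. A larger log2 ratio than that of ZBTB16 was found in 0.586% of the genes. All 5 mid-gestation dogs lay above all 3 luteolysis dogs, a separation in either direction that 9.76% of the genes showed. The exact permutation test on log2 CPM gave p = 0.0357, the smallest possible with 5 against 3 dogs. Leaving out luteolysis dog 3, ZBTB16 was no longer a DEG (log2 ratio 2.08, edgeR adjusted p = 0.104). The luteolysis dogs also differed in the summed CPM of the 8 matched leukocyte markers, which was 180 in luteolysis dog 1, within the mid-gestation range of 147 to 252, and 606 and 596 in the others. LYZ and MRC1, genes of macrophages, made up most of this sum. The list did not move one way: LYZ was lower at mid-gestation than in luteolysis (61.7 against 252 CPM on average), while the T cell gene CD2 was higher (8.75 against 2.80 CPM), both DEG in edgeR. ZBTB16 in luteolysis dog 1 was at 1.28 CPM, from 17 reads, below every dog of the other groups, and the choice had used this value. Whether leukocyte content bears on the level of ZBTB16 was not tested.

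NR3C1 did not pass the test in the same contrast. Its log2 ratio was 0.16 (SE 0.16, 95% interval −0.18 to 0.50, edgeR adjusted p = 0.613), so an increase of more than 0.50 on the log2 scale at mid-gestation lies outside the interval.

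The contrast “mid-gestation over antigestagen” asks what a block of the P4 receptor does to the CL of pregnancy, and shares no dog with the contrast the genes were chosen on. ZBTB16 had a log2 ratio of 0.93 (SE 0.33, 95% interval 0.23 to 1.62), that is, 1.90-fold higher in the untreated dogs. It was not a DEG, with an unadjusted p of 0.0128 and an adjusted p of 0.613 in edgeR's quasi-likelihood test. The groups overlapped for ZBTB16 and NR3C1, and 1.24% of the 14399 genes tested did not overlap. Of these 14399 genes 0 were DEG in edgeR (0%), whereas 980 had an unadjusted p-value under 0.05, and DESeq2 and limma-voom called 87 and 18 genes. The exact permutation test on log2 CPM of ZBTB16 alone, two-sided and not adjusted, gave p = 0.0476, where 0.00794 is the smallest possible. Without mid-gestation dog 1, the dog with the highest ZBTB16, the log2 ratio was 0.64 (edgeR adjusted p = 0.827).

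NR3C1 in treated and untreated dogs was close to equal, with a log2 ratio of 0.08 (SE 0.14, 95% interval −0.22 to 0.37, edgeR adjusted p = 0.947). The exact permutation p was 0.54.

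In “luteolysis over antigestagen”, natural against induced luteolysis, ZBTB16 was lower in the luteolysis dogs by a log2 ratio of −1.29 (SE 0.41), which makes the treated dogs 2.45-fold higher. The luteolysis dogs are again those whose values the choice used, so these tests are not independent of it. The groups did not overlap, as was the case for 7.74% of the 14473 genes tested. With an unadjusted p of 0.00649 and an adjusted p of 0.113 in edgeR's quasi-likelihood test, ZBTB16 missed the criteria for DEG, which 4.75% of the genes met, 1.62% in this direction. DESeq2 called it (log2 ratio −1.30, adjusted p = 0.0409), and the exact permutation p was 0.0357, again the smallest possible. The log2 ratio of NR3C1 was −0.09 (SE 0.16, edgeR adjusted p = 0.82), and it turned to 0.020 without antigestagen dog 1.

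Both contrasts of luteal regression with dogs at an earlier stage rest on 2 dogs, which are the same as in the choice. Their tests, with any of the tools, are therefore not independent of the choice. Against mid-gestation NR3C1 had a log2 ratio of 0.47 (SE 0.18, edgeR adjusted p = 0.319) and ZBTB16 one of 0.63 (SE 0.41, edgeR adjusted p = 0.47). Against the antigestagen group the log2 ratios were 0.55 (SE 0.18, edgeR adjusted p = 0.198) for NR3C1 and 1.55 (SE 0.40, edgeR adjusted p = 0.169) for ZBTB16. NR3C1 did not overlap between the groups in either contrast, nor ZBTB16 in the second, as was the case for 30.5% of the genes against mid-gestation and 29.7% against antigestagen. None of these 4 values passed the criteria in edgeR, which called 0 genes in either contrast (0% of 14685 and of 14578 genes, with 2073 and 2496 genes at an unadjusted p-value under 0.05). DESeq2 called 332 and 920 genes, and limma-voom 2741 and 2408. NR3C1 and ZBTB16 were both DEG against the antigestagen group with DESeq2 (adjusted p = 0.0671 and 0.0248) and with limma-voom (adjusted p = 0.0131 and 0.0105), and against mid-gestation NR3C1 was a DEG with limma-voom (adjusted p = 0.0251). Without luteal regression dog 2, ZBTB16 was 1.00 above antigestagen and 0.07 above mid-gestation on the log2 scale.

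**Figure D2:**
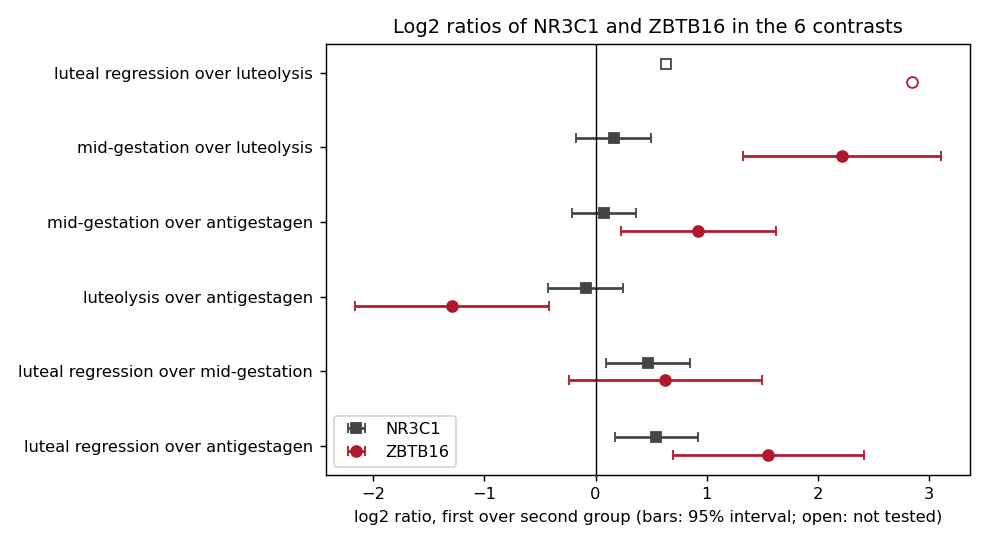
Log2 ratios of NR3C1 (squares) and ZBTB16 (circles) in 6 contrasts of the 4 groups, first group over second, with 95% intervals from edgeR, where open symbols mark the contrast by which the genes were chosen. The values of NR3C1 among pregnant dogs lie between −0.09 and 0.16, while those of ZBTB16 in the same contrasts reach 2.22 and −1.29.

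Ordered by mean level, ZBTB16 ran from luteolysis over antigestagen and mid-gestation to luteal regression. Of the neighbours in this order, luteolysis and antigestagen did not overlap, antigestagen and mid-gestation overlapped in range, and mid-gestation and luteal regression overlapped too. The order for NR3C1 was the same, but its first 3 groups overlapped with each other and only luteal regression stood apart from them.

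Reads of ZBTB16 can also be set against reads of NR3C1 in the same library, which needs no scaling between libraries. Since the number depends on the lengths of both genes, it was compared between dogs only. There were 66.6, 33.4, 48.7, 41.5 and 27.7 ZBTB16 reads per 1000 NR3C1 reads in the mid-gestation dogs and 24.7, 18.8, 21.5, 29.0 and 31.8 in the treated dogs. The luteolysis dogs had 13.6, 10.3 and 8.47, and the luteal regression dogs 32.7 and 68.5. The luteolysis dogs lay below all others here too, which restates the ZBTB16 counts that the choice had used. Both luteal regression dogs, whose values the choice had also used, lay above all treated dogs. This rests on 32.7 in luteal regression dog 1 against 31.8 in antigestagen dog 5. The 107 ZBTB16 reads of luteal regression dog 1 have a Poisson interval, at the level used above, of 87.7 to 129 reads. That order thus lies within counting error. The share of all genes with such separations was not counted for this ratio. On the log2 scale the difference between mid-gestation and antigestagen was 0.75 (exact permutation test, two-sided, p = 0.0238), that between mid-gestation and luteolysis 1.98 and that between luteolysis and antigestagen −1.22. The last 2 differences restate the low ZBTB16 of the luteolysis dogs, which the choice had used, and are given as a description. Including those on log2 CPM, 9 such tests were made, and their p-values are not adjusted. Those on the ratio were not planned and were added after the data had been seen. The exact permutation p of 0.0238 counts mid-gestation dog 1, at 66.6 the highest of its group. The labels of this dog differ among themselves, as described below.

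**Figure D3:**
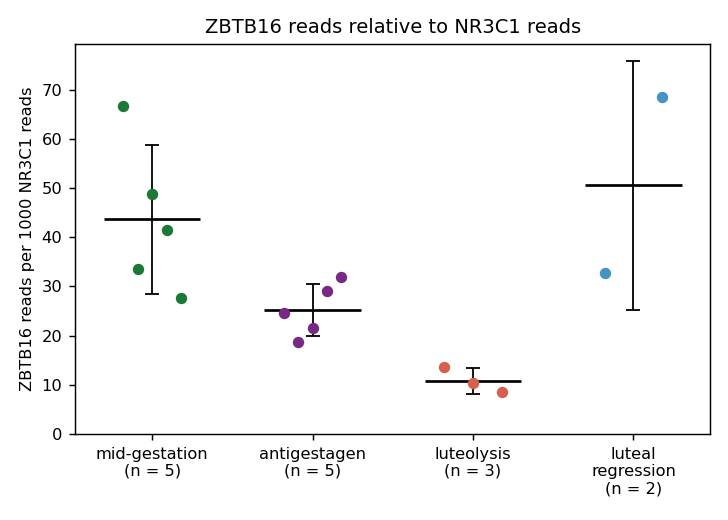
ZBTB16 reads per 1000 NR3C1 reads in each dog, by group, with the group mean (line) and SD (bar). Luteolysis dogs lie at 8.47 to 13.6, treated dogs at 18.8 to 31.8 and mid-gestation dogs at 27.7 to 66.6.

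Dogs with more NR3C1 also tended to have more ZBTB16 when all groups were pooled, with Pearson's r = 0.68 and Spearman's rho = 0.73 over 15 dogs. Both genes were chosen on 1 contrast, so this value is a description. After removal of each group's mean, r was 0.48 (permutation test within groups, p = 0.0802) and rho was 0.35 (permutation p = 0.246). With the 2 dogs whose NR3C1 lay farthest from the others of their groups left out, which were antigestagen dogs 1 and 4, r was 0.53 (permutation p = 0.161) over 13 dogs. With luteal regression dog 1 or dog 2 left out, the other dog equals its group mean. Both settings are therefore the same and take this group out of the relation. In them r was 0.60. Without mid-gestation dog 1, whose labels differ among themselves as described below, r was 0.34 (permutation p = 0.262). Without mid-gestation dog 2 it was 0.38 (permutation p = 0.16). Thus r within groups depended on single mid-gestation dogs and on whether the group of 2 luteal regression dogs counted.

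**Figure D4:**
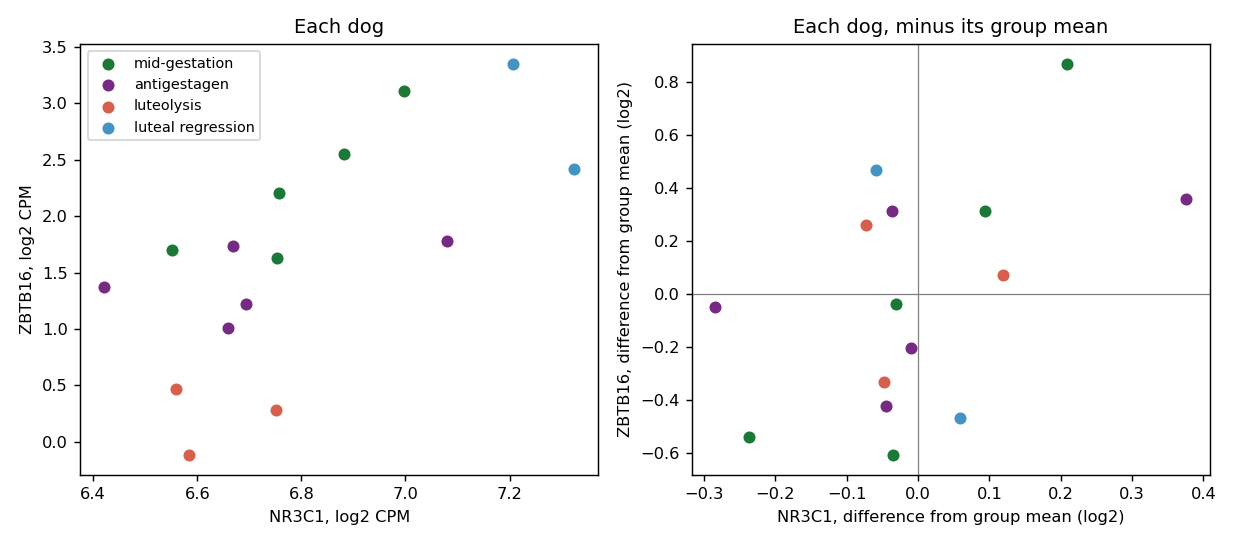
Log2 CPM of ZBTB16 against NR3C1 in 15 dogs, as measured (left) and as the difference from the mean of each dog's group (right), with each point a dog. Pooled r is 0.68, and r within groups is 0.48.

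The genes whose pattern was most like that of NR3C1 over the 15 dogs, among 2965 genes with a symbol, were RHOU, KLF11, SYT9, FAIM2 and NR1D2. Pearson's r of their log2 CPM with NR3C1 was 0.93, 0.92, 0.90, 0.90 and 0.90, and they were also the 5 highest of all 14921 genes. NR1D2 encodes a nuclear receptor of the circadian clock, KLF11 a Krüppel-like transcription factor and RHOU a small GTPase. NR1D2 was at 246 ± 9.56 CPM in luteal regression against 114 ± 15.6 CPM in luteolysis, 139 ± 41.2 CPM after antigestagen and 139 ± 33.1 CPM at mid-gestation (mean ± SD). After removal of group means r was still between 0.76 and 0.83 for these 5 genes. At the opposite end lay PSMD14, ATG4D, ARPC5L, DAD1 and PDRG1, with r from −0.85 to −0.84.

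For ZBTB16 the most alike were IFI44L, PER2, SCARA5, FAM78B and IFIT2, with r of 0.93, 0.91, 0.90, 0.90 and 0.88, again the 5 highest of all genes. IFI44L and IFIT2 are genes known to be induced by interferon, PER2 is a clock gene that glucocorticoids induce, and SCARA5 is a ferritin receptor. IFI44L was at 16.1 ± 2.99 CPM in luteolysis, 34.6 ± 10.2 CPM after antigestagen, 53.1 ± 19.2 CPM at mid-gestation and 58.4 ± 24.7 CPM in luteal regression. With group means removed r lay between 0.57 and 0.80. The most opposite genes were SNX10, ARMCX5, SLC41A2, SOD2 and VPS37A, with r from −0.91 to −0.85, among them SOD2, the mitochondrial superoxide dismutase, at 1375 ± 491 CPM in luteolysis against 417 ± 106 CPM at mid-gestation. All of these correlations share the 15 libraries and the contrast by which the genes were chosen.

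Other steroid receptor genes with an identifier were the mineralocorticoid receptor NR3C2 and the oestrogen receptor ESR1, and the P4 receptor gene was not matched. NR3C2 was at 6.77 ± 2.01 CPM at mid-gestation, 7.88 ± 2.38 CPM after antigestagen, 4.93 ± 0.860 CPM in luteolysis and 10.2 ± 0.468 CPM in luteal regression. ESR1 was at 18.9 ± 5.39, 20.7 ± 5.41, 9.47 ± 6.15 and 23.3 ± 5.82 CPM in the same order. NR3C1, NR3C2 and ESR1 thus each had their lowest mean in luteolysis and their highest in luteal regression. In edgeR NR3C2 and ESR1 were DEG in 0 of the 6 contrasts, with an unadjusted p-value under 0.05 in 2 and 3 of them. ESR1 was a DEG with DESeq2 and limma-voom in the 3 contrasts that hold luteolysis dogs, where its log2 ratio was 1.29 for luteal regression over luteolysis, 0.99 for mid-gestation over luteolysis and −1.12 for luteolysis over antigestagen. Of all genes DESeq2 called 10.6%, 11.9% and 10.3% in these 3 contrasts, in the same order, and limma-voom 24.7%, 22% and 19.6%. NR3C2 was a DEG in luteal regression over luteolysis with both tools (log2 ratio 1.04) and in luteolysis over antigestagen with limma-voom alone (−0.68). Identifiers were known only for genes that the study lists as differing in these dogs, so these directions are not independent evidence.

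Enzymes that set the supply of active glucocorticoid were represented by 3 of 13 genes. HSD11B2 inactivates cortisol, and H6PD provides the cofactor for its regeneration. HSD11B2 was at 215 ± 67.8 CPM at mid-gestation and 78.2 ± 53.2 CPM in luteolysis, a log2 ratio of 1.46 (SE 0.39, edgeR adjusted p = 0.0502), and it was the only DEG of the 3 in that contrast. It was at 164 ± 45.5 CPM after antigestagen and 100 ± 41.5 CPM in luteal regression. H6PD was at 222 ± 39.3, 244 ± 22.9, 184 ± 43.2 and 299 ± 2.13 CPM at mid-gestation, after antigestagen, in luteolysis and in luteal regression. CYP17A1, which turns P4 and its precursors towards other steroids, was at 473 ± 208, 97.9 ± 67.7, 236 ± 114 and 723 ± 189 CPM in this order. Beyond HSD11B2 in the first contrast edgeR called none of the 3 genes in any contrast, where 1 to 3 had an unadjusted p-value under 0.05. DESeq2 called up to 2 and limma-voom up to 3, with up to 11.9% and 24.7% of all genes.

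ZBTB16 can be set beside other genes known to respond to glucocorticoids. Of 40 such genes 16 had an identifier and were tested, again through the study's own lists. In “mid-gestation over luteolysis” 4 were higher and 6 lower at mid-gestation, against 2.43% and 5.73% of all genes tested, and since the list holds only genes the study names as differing, nothing was read from these shares. The median log2 ratio of the 16 genes was −0.74, against −0.02 for all genes tested. PER2, CRISPLD2, ANGPTL4 and SESN1 were the 4 that were higher, with log2 ratios of 1.27, 1.26, 1.42 and 0.62, as for ZBTB16. The 6 lower ones were IRS2, IL1R2, ERRFI1, FBXO32, GLUL and NFKBIA, with log2 ratios from −2.21 to −1.12. FBXO32 is a muscle ubiquitin ligase, IL1R2 a decoy receptor of IL1 and NFKBIA the inhibitor of NF-kB. Without luteolysis dog 3, 1 of the 16 was a DEG, and without luteolysis dog 2, 2 were, as the share of DEG among all genes fell from 8.16% to 0.762% and 3.26%. Without mid-gestation dog 3 the number was 5, with 4.99% of all genes.

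In “mid-gestation over antigestagen” 0 of the 16 targets were DEG in edgeR, and 7 had an unadjusted p-value under 0.05. DESeq2 called 1 and limma-voom 0, with 0.604% and 0.125% of all genes. Leaving out antigestagen dog 1 gave 1 DEG, with 0.0554% of all genes. Their median log2 ratio was −0.56, against −0.02 for all genes tested. GLUL, glutamine synthetase, was higher and ANGPTL4, an inhibitor of lipoprotein lipase, and TIPARP lower in “luteolysis over antigestagen”, with log2 ratios of 0.95, −2.24 and −0.79. These were 1 of 16 genes against 3.12% of all genes in the first direction and 2 against 1.62% in the second. With luteolysis dog 1 left out 10 of the 16 were DEG, and with luteolysis dog 3 left out 0 were, while the share among all genes moved from 4.75% to 14.8% and 0.0414%. It was 1 gene without luteolysis dog 2 or any of antigestagen dogs 1, 2, 3 and 5, with 1.60% to 4.48% of all genes.

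For luteal regression over luteolysis PER2, CRISPLD2 and KLF15 were DEG in edgeR, higher with log2 ratios of 2.41, 1.87 and 1.16, where 1.52% of all genes were DEG in this direction. The median of the 16 genes had the opposite sign, at −0.81, and 6 of them had a log2 ratio above 0. None was a DEG in the other direction in edgeR, where 3.58% of all genes were. DESeq2 called 4 higher and 2 lower and limma-voom 5 and 5, with 10.6% and 24.7% of all genes called in either direction. KLF15 is a transcription factor induced by glucocorticoids in liver and muscle. The number of DEG among the targets was 0 without luteolysis dog 3 or without either luteal regression dog, where at most 5 of all genes were DEG, and 7 without luteolysis dog 1, 3 higher and 4 lower, with 10.7% of all genes. In the other 2 contrasts of luteal regression edgeR called 0 of the 16, with 1 gene against mid-gestation and 6 against antigestagen at an unadjusted p-value under 0.05. DESeq2 called 0 and 5 of them, with 2.26% and 6.31% of all genes, and limma-voom 1 and 6, with 18.7% and 16.5%. Without antigestagen dog 1 edgeR called 2 against antigestagen, with 0.622% of all genes.

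**Figure D5:**
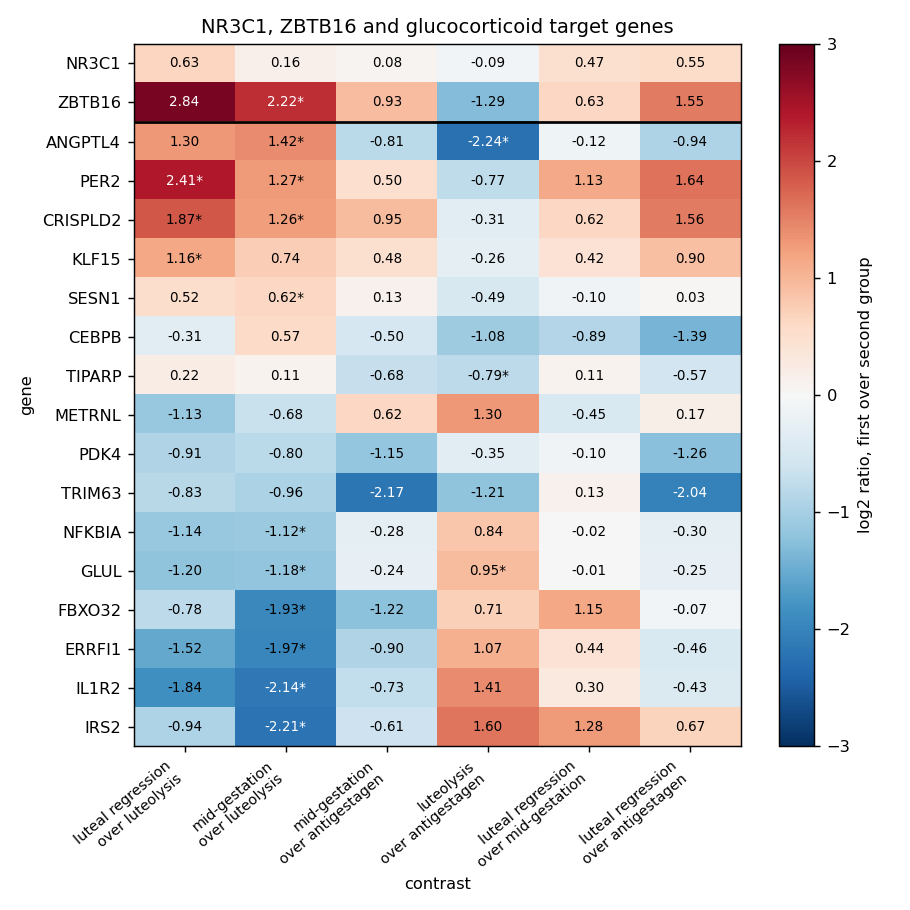
Log2 ratios (first over second group) of NR3C1, ZBTB16 and 16 glucocorticoid target genes in 6 contrasts, where an asterisk marks a DEG in edgeR and colour runs from blue (lower in the first group) to red (higher). In the column mid-gestation over luteolysis ZBTB16, at 2.22, stands with PER2, CRISPLD2, ANGPTL4 and SESN1, and 6 targets carry an asterisk in the other direction, and the pair of NR3C1 and ZBTB16 was not tested in the first column.

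Few genes of the other lists had an identifier, and their DEG are those of edgeR. Among all genes 2.43% were higher and 5.73% lower in “mid-gestation over luteolysis”, 3.12% and 1.62% in “luteolysis over antigestagen”, and 1.52% and 3.58% in “luteal regression over luteolysis”. Of 26 genes known to respond to P4 through its receptor 7 did, and in “mid-gestation over luteolysis” 2 were lower, AREG (log2 ratio −4.98), a ligand of the EGF receptor, and IRS2, while the median log2 ratio of the 7 was 0.57. DESeq2 called 4 of the 7 and limma-voom 3, with 11.9% and 22% of all genes. Of 18 proteins that act with ZBTB16 in repression 4 had an identifier. HDAC3 was lower and HDAC5 higher at mid-gestation than in luteolysis, with log2 ratios of −0.77 and 0.61. Against antigestagen, too, HDAC3 was higher and HDAC5 lower in luteolysis, with log2 ratios for luteolysis over antigestagen of 0.62 and −0.71. CBFA2T3 was higher in luteal regression than in luteolysis (log2 ratio 1.60), as was the related BTB gene PATZ1 (0.72), 1 of 4 matched among 43 BTB zinc finger genes. Another of these, ZBTB18, was lower at mid-gestation than in luteolysis (log2 ratio −1.24). Of the chaperones of steroid receptors 4 of 18 were matched, of which BAG1 was lower in luteal regression than in luteolysis (log2 ratio −0.78) and PPID higher in luteolysis than after antigestagen (0.71). The coregulators were matched for 3 of 18, with HDAC3 the only DEG in edgeR. DESeq2 and limma-voom called 2 genes each in “luteolysis over antigestagen”, with 10.3% and 19.6% of all genes. They called the same number in “luteal regression over luteolysis”, with 10.6% and 24.7%.

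Markers of other cells moved between the same groups. The summed CPM of the leukocyte markers was between 183 and 329 after antigestagen and 96.9 and 102 in luteal regression. None of the matched markers was at 0 in any dog. For 4 of 12 stromal and pericyte markers, collagen genes and PDGFRA, the sums ran from 1902 to 4577 CPM in luteolysis, from 3358 to 9207 CPM after antigestagen, from 5361 to 7034 CPM in luteal regression and from 3682 to 14901 CPM at mid-gestation. Mid-gestation dog 1 had the highest stromal sum and the highest ZBTB16 of its group, and luteal regression dog 2 was the higher in both. In the other groups this was not so. Antigestagen dog 2 had the highest stromal sum of its group, at 9207 CPM, and the lowest ZBTB16, at 1.90 CPM. Luteolysis dog 2 had the highest sum, and its ZBTB16 lay between those of the others. For 6 of 12 endothelial markers the sums ran from 438 to 986 CPM in luteolysis, from 492.9 to 1031 CPM after antigestagen, from 307 to 314 CPM in luteal regression and from 279 to 714 CPM at mid-gestation. The part of these cells in the levels of NR3C1 and ZBTB16 was not tested.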

How the data were processed

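RNA of the CL was poly-A selected, made into libraries with a kit that does not mark strand and read from 1 end. Alignment to CanFam3.1 used STAR 2.5.1b and counting used featureCounts, and the authors deposited raw counts, which are rounded to 4 significant digits from 10000 upwards (3148 values). Samples were grouped by their condition label. The analysis used edgeR 4.0.16, limma 3.58.1 and DESeq2 1.42.0 in R 4.3.3, and SciPy 1.17.1. A TMM-scaled quasi-likelihood fit over 15 dogs held the 14922 genes whose mean count reached 10 in 1 or more groups. For a contrast, two-sided tests covered the genes reaching it in either group, adjusted by Benjamini-Hochberg over those genes. The fit was tested on simulated counts. The study used DESeq2, which is an alternative here. Log2 CPM used a prior count of 2. The permutation test within groups drew 100000 permutations. The members and lists were chosen with earlier results of these data known. Symbols came from the study's supplementary lists (names only, 2970 identifiers), whose fold changes and p-values were not used. Named are NR3C1, ZBTB16, per list and contrast up to 3 DEG per direction by p-value, matched receptor and enzyme genes (1 gene is not reported here), and the 5 genes most like and most unlike each member; SESN1, ERRFI1, FBXO32 and NFKBIA were added after their values were seen. Alternatives were other scalings, filters, tools and prior counts, 2 groups alone and 1 dog left out. Genome positions and sequences were not used here.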

Additional observations from a re-analysis of the deposited data

How the results depend on the processing

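Alternatives were planned except for the comparison with NR3C1 reads, which was added after the data had been seen. Of 158 alternative values of the tested log2 ratios of NR3C1 and ZBTB16, 146 kept their direction and their side of the criteria, and of 24 values in luteal regression over luteolysis, which was not tested, 22 moved by less than the spread between dogs. With DESeq2, ZBTB16 became a DEG in luteolysis over antigestagen (−1.30) and in luteal regression over antigestagen (1.58), as did NR3C1 in the latter (0.57). With limma-voom the values for luteal regression over antigestagen were 1.66 for ZBTB16 and 0.54 for NR3C1, and for luteal regression over mid-gestation 0.45 for NR3C1, all DEG. Each of these contrasts shares dogs with the choice, so these calls are not independent of it. Exact permutation tests passed 0.05 for ZBTB16 in mid-gestation over antigestagen (0.81, or 0.75 relative to NR3C1 reads). They also did in luteolysis over antigestagen (−1.21 and −1.22), at the smallest p possible. There the choice had used the luteolysis values, so these differences are a description. Upper-quartile scaling moved NR3C1 in luteal regression over luteolysis to 0.74. Leaving out 1 dog at a time, ZBTB16 lay between 2.29 and 3.24 in luteal regression over luteolysis and between 1.93 and 2.36 in mid-gestation over luteolysis. NR3C1 lay between −0.17 and 0.020 in luteolysis over antigestagen (0.020 without antigestagen dog 1, the 1 reversal). The r within groups lay between 0.34 and 0.60, with 0.34 without mid-gestation dog 1 and 0.60 where the luteal regression group no longer counted. The number of DEG among the 16 glucocorticoid targets was 6 with DESeq2, 10 with limma-voom and 0 with the dogs of both groups alone for luteal regression over luteolysis (0 to 7 with 1 dog left out), 3 with both groups alone for mid-gestation over luteolysis (1 to 9), 1 with DESeq2 for mid-gestation over antigestagen (0 to 1), 7, 7 and 0 for luteolysis over antigestagen (0 to 10), 1 with limma-voom and 1 with both groups alone for luteal regression over mid-gestation, and 5 with DESeq2 and 6 with limma-voom for luteal regression over antigestagen (0 to 2). The counts over all genes moved too: DESeq2, limma-voom and both groups alone gave 1567, 3646 and 0 DEG against 754 for luteal regression over luteolysis, 1748, 3220 and 422 against 1197 for mid-gestation over luteolysis, 1486, 2833 and 3 against 687 for luteolysis over antigestagen, 87, 18 and 0 against 0 for mid-gestation over antigestagen, 332, 2741 and 770 against 0 for luteal regression over mid-gestation, and 920, 2408 and 1 against 0 for luteal regression over antigestagen. The cause of these changes was not tested. Scaling on reference genes was not run, since 0 of 3 had an identifier, and with a mean count of at least 50 ZBTB16 was not tested in luteolysis over antigestagen. No paired analysis was possible because no dog belongs to more than 1 group. Depth limits ZBTB16, counted with 14 to 28 reads in the luteolysis dogs.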

Other observations

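The labels of mid-gestation dog 1 differ among themselves: its title and condition place it at mid-gestation, while its description gives the group number of the antigestagen dogs. Its ZBTB16 level, at 8.50 CPM, was the highest of all pregnant dogs, and its NR3C1 level was 127.7 CPM. Without this dog the log2 ratio of ZBTB16 was 1.93 for mid-gestation over luteolysis, where ZBTB16 remained a DEG (edgeR adjusted p = 0.0253). The choice had used the luteolysis values, so this call is not independent of it. With luteolysis dog 3 left out instead, ZBTB16 was not a DEG (edgeR adjusted p = 0.104). Against the treated dogs, whose group number the description gives, the log2 ratio fell from 0.93 to 0.64 without this dog. The unadjusted p of edgeR's test rose there from 0.0128 to 0.0569. Both exact permutation tests against the treated dogs (p = 0.0476, and p = 0.0238 relative to NR3C1 reads) count this dog as mid-gestation. Their dependence on its label was not tested. None of the 6 checks for a single outlying dog, made for NR3C1, ZBTB16 and their ratio in both groups of 5 dogs, found one.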
